A study of Mus musculus with 8 samples.

Results

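The 10 genes described here encode G protein-coupled receptors that are known to speed, slow or mark the maturation of OLs: *Gpr37*, *Adgrg1*, *S1pr5*, *Lpar1*, *Adora1*, *Oprk1*, *Chrm1*, *Chrm3*, *Ednrb* and *Casr*. They were found by their symbols among the 23427 genes of the table, where *Adgrg1* is listed under its older symbol *Gpr56*, and all 10 were present. Their mRNA was measured by RNA-seq in primary mouse OPCs, the progenitors that turn into OLs, at 4 points of their differentiation in culture (Day 0 to Day 3), each with 2 replicates, which makes 8 libraries. Every group was wild type (WT) on the C57BL/6J background, and the labels give no difference between groups but the day. Cortices of 3 pups at postnatal day 7 were the source in the study's isolation protocol, microglia and endothelial cells were first removed on lectin-coated dishes, and OPCs were then caught on a dish carrying an antibody against PDGFRα. Day 0 cells had not left the growth condition, and the later groups had spent 1, 2 or 3 days without growth factors in a medium with the thyroid hormone T3. The labels describe DMEM with serum, whereas the study's methods describe a growth medium with defined supplements. The study calls its replicates independent, but the labels do not say which libraries share a cell isolation. The cells grew without axons, so the groups model the timing of the lineage in culture and not myelination.

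G protein-coupled receptors sit in the cell membrane and pass the binding of a ligand to G proteins inside the cell, which raise or lower cAMP, release calcium or act on the actin cytoskeleton. In OPCs, Adgrg1, Chrm1, Chrm3 and Gpr37 are known as receptors that hold cells back from differentiation or myelination, whereas Oprk1 is known to promote it. S1pr5 and Lpar1 bind the lysophospholipids S1P and LPA and are known markers of the later lineage, Adora1 senses adenosine, Ednrb senses endothelins and Casr senses extracellular calcium.

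All values are FPKM, the fragments counted for a gene divided by its length and by the mapped fragments of the library, so levels can be compared between genes. Differences between days were tested with limma on log2(FPKM + 1) in the 12208 genes that reached an FPKM of 1 in at least 2 libraries. A gene was called changed at a Benjamini-Hochberg adjusted p under 0.05, and a difference on this scale understates the change of genes near 0. Of the 10 receptors, 8 could be tested, because *Oprk1* and *Chrm3* were below the filter. The libraries were shallow, with an estimated 960000 to 1530000 fragments each. The summed FPKM of 4 progenitor markers went from 1002 and 1035 on Day 0 to 261 and 162 on Day 3. Without *Gpr17*, which peaked on Day 1 and is described with the related receptors, the other 3 went from 769 and 756 to 75.8 and 45.9. The summed FPKM of 6 OL markers went from 1074 and 787 to 18963 and 26846. Of 8 astrocyte markers, 7 were higher in replicate 2 on all 4 days, with sums of 121 to 173 in replicate 1 and 360 to 956 in replicate 2. In bulk libraries such as these, fewer cells of a type and less RNA per cell cannot be told apart.

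**Figure D1:**
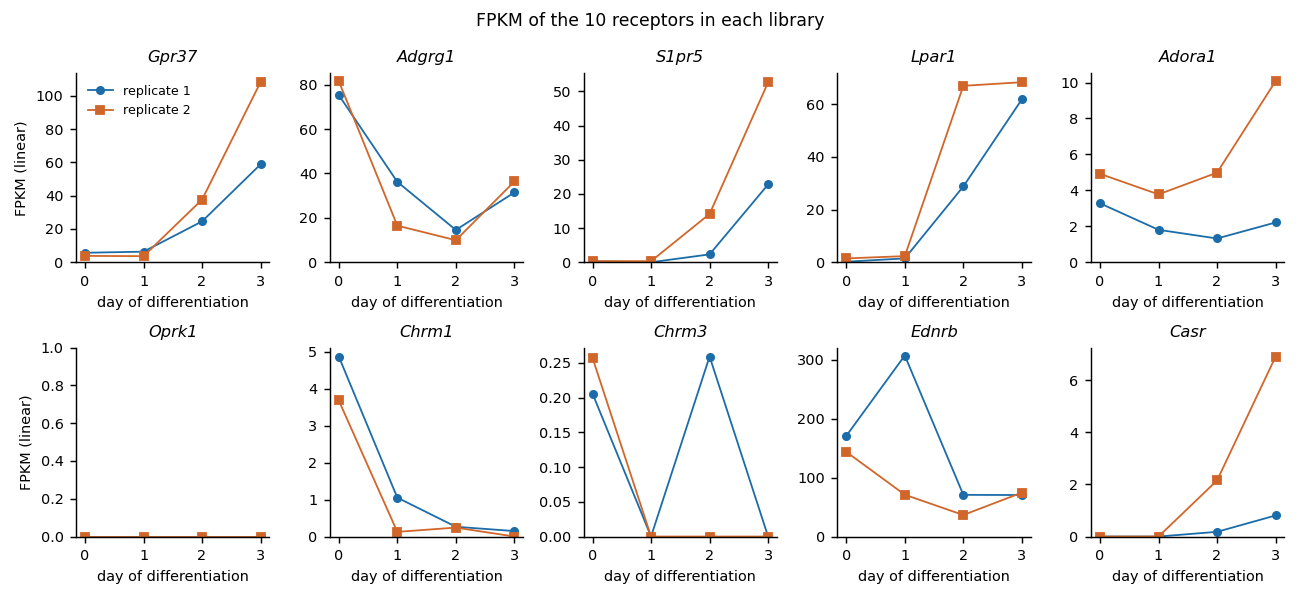
Each panel plots the FPKM of a receptor (y axis, linear, own scale) against the day of differentiation (x axis), with a line for each replicate. *Gpr37*, *S1pr5* and *Lpar1* were at most 6.36 FPKM until Day 1 and reached 22.8 to 108 FPKM on Day 3, *Adgrg1* dipped to 9.93 and 14.5 FPKM on Day 2, and *Oprk1* is listed at 0 in every library.

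The comparison of days asks which receptors a maturing OL gains and which it loses. From Day 0 to Day 3, 3 of the 8 tested receptors rose (*Gpr37*, *S1pr5* and *Lpar1*) and 2 fell (*Adgrg1* and *Chrm1*) by limma's test. Over all tested genes, 12% were called higher and 26.3% lower in that comparison, and the median difference was -0.31 against 1.08 for the receptors. The receptor median lies between *Adora1* (0.25) and *Casr* (1.92), and *Casr* passed the filter only through the second replicates of Day 2 and Day 3. *S1pr5* passed it only through libraries of those days, and *Oprk1* and *Chrm3* are left out. The 2 medians are therefore not a test of the receptors as a set. Scaling the libraries by median ratios moved the median of all genes to -0.04 and left 3 receptors higher and 1 lower, with *Adgrg1* losing its call. With that scaling, 2137 genes were called higher and 2045 lower, against 1460 and 3207 as deposited. In replicate 1 alone all 5 called receptors went the same way. Those libraries are part of the fit that made the calls, so this is a description and no separate support. When any difference among the 4 days was asked for, the same 5 receptors were called, against 35.2% of all genes, and without either Day 0 library *Chrm1* was not (limma adjusted p = 0.0925 and 0.0582).

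The promoters of the 3 receptors that rose together are shown to give the sequence at their starts. They are RefSeq windows on GRCm38.p6, read on the gene's strand from 250 bases before to 50 after an annotated start, and capitals mark a match to any of 4 short motifs. Of the 10 receptors, 8 had at least 1 such window and there were 12 windows in all. *Lpar1* has 3 annotated starts and the table does not tell them apart, so the window with the highest content of G and C is printed.
Gpr37, chr6:25689931-25690230, minus strand: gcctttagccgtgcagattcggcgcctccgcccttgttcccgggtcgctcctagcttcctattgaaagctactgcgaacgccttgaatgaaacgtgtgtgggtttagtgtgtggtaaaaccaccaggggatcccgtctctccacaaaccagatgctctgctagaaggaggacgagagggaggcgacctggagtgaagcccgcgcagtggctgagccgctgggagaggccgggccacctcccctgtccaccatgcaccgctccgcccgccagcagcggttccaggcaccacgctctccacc
S1pr5, chr9:21248394-21248693, minus strand: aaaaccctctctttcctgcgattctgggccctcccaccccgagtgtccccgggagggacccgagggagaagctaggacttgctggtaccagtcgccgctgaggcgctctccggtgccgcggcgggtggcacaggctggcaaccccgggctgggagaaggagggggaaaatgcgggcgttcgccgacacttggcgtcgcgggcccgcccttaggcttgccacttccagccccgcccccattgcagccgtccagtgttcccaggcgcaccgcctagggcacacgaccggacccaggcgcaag
Lpar1, chr4:58553244-58553543, minus strand: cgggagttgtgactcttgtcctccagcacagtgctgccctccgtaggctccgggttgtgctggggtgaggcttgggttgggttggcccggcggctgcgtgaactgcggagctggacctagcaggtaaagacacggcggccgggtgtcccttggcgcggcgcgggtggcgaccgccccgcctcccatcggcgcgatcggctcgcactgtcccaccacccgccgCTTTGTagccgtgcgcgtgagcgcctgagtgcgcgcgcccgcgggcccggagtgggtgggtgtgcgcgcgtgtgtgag

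The letters searched, on both strands, were ACAAAG for SOX factors, CTTTGA for TCF factors, AGGTCA for the site of a thyroid hormone receptor monomer and CAGCTG for an E-box. These names stand for the letters alone, and which factors bind them was not tested. None of these motifs overlaps another in the printed windows. Background shares were counted over 32851 windows, with 1 chromosome left out. Of these, 18.7% held the SOX letters, 16.0% the TCF letters, 16.3% the thyroid hormone receptor letters and 16.3% the E-box letters. The *Gpr37* and *S1pr5* windows held none of the 4, and the printed *Lpar1* window held 1 SOX match on the reverse strand, with its first base 28 bases before the start. G and C made up 62.7% of the *Gpr37* window and 69.3% of the *S1pr5* window, against a median of 52.7% over the windows counted. The *Lpar1* window was picked for its high content, at 71.7%, so it is not set against that median. Another *Lpar1* start, at chr4:58553442-58553741, had 63% G and C and no match. The third *Lpar1* start, at chr4:58499354-58499653, had 43.7% G and C, 1 SOX match and 1 TCF match. Among the receptors not called higher, windows of *Adgrg1*, *Adora1* and *Casr* each held 1 SOX match.

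*Lpar1*, a receptor for the lysophospholipid LPA, had the largest rise among the receptors on the log2(FPKM + 1) scale, although the ratio of Day 3 to Day 0 was larger for *S1pr5*. Its gene lies on the minus strand of chromosome 4 from 58435255 to 58553898 (GRCm38). FPKM of *Lpar1* was 0.194 and 1.45 (Day 0), 1.46 and 2.33 (Day 1), 28.8 and 67.0 (Day 2), then 61.9 and 68.4 (Day 3). Both libraries of Day 2 and of Day 3 were far above all 4 earlier libraries, and Day 2 overlapped Day 3. The difference from Day 0 to Day 3 was 5.27 (SE 0.45) on the log2(FPKM + 1) scale, with a limma adjusted p of 1.32e-04.

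Most of this rise fell between Day 1 and Day 2. The *Lpar1* difference between those days was 3.98 (SE 0.45, limma adjusted p = 0.00693), whereas Day 1 against Day 0 gave 0.74 (adjusted p = 0.340) and Day 3 against Day 2 gave 0.55 (adjusted p = 0.634). Without the second replicate of Day 2 the adjusted p of the Day 2 step was 0.0647. If the lowest value is taken as 1 fragment, the libraries of Day 0 held 7 *Lpar1* fragments and those of Day 3 held 447. At equal depth the Day 3 level was then 86.0 times the Day 0 level, with an exact 95% interval of 41.4 to 215 that covers counting error only.

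*Gpr37*, an orphan-type receptor found in OLs, had the highest mean FPKM of the 10 on Day 3. The gene spans 25665878 to 25690729 on the minus strand of chromosome 6. *Gpr37* read 5.70 and 3.81 FPKM (Day 0), 6.36 and 3.66 (Day 1), 24.6 and 37.7 (Day 2), then 58.9 and 108 (Day 3). Day 0 and Day 1 overlapped, and from there each day lay wholly above the day before. The mean went from 4.75 ± 1.33 FPKM (SD, n = 2) on Day 0 to 83.7 ± 35.0 (SD, n = 2) on Day 3.

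On the log2(FPKM + 1) scale *Gpr37* rose by 3.83 (SE 0.37, limma adjusted p = 1.87e-04) from Day 0 to Day 3. Its step from Day 1 to Day 2 was 2.43 (SE 0.37, limma adjusted p = 0.0159), and that call was lost without a trend in eBayes (0.0504), without the second replicate of Day 1 (0.0591) and without the second replicate of Day 2 (0.136). Day 1 against Day 0 gave 0.04 (adjusted p = 0.961) and Day 3 against Day 2 gave 1.36 (adjusted p = 0.145), positive in both replicates. Whole fragments could be read back for *Gpr37*, with 43 on Day 0 and 539 on Day 3, a ratio at equal depth of 16.9 (exact 95% interval 12.4 to 23.6, counting error only).

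*S1pr5*, the S1P receptor known from OLs and natural killer cells, lagged behind the other two that rose. It lies on the minus strand of chromosome 9 from 21242912 to 21248443, where 51 exon bases are shared with *Gm48303* on the other strand. *S1pr5* measured 0.261 and 0.327 FPKM (Day 0), 0 and 0.313 (Day 1), 2.30 and 14.1 (Day 2), then 22.8 and 52.7 (Day 3). Each of the first 4 libraries held at most 1 fragment, and the Day 3 libraries held 62 and 126. Day 2 lay between Day 1 and Day 3 without overlap, and replicate 2 was the higher on both Day 2 and Day 3.

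The *S1pr5* difference from Day 0 to Day 3 was 4.79 (SE 0.67, limma adjusted p = 0.00105). At equal depth Day 3 held 127 times the fragments of Day 0, where 2 fragments were counted, and the exact 95% interval of 34.6 to 1054 covers counting error only. Neither single step passed the test over all libraries, with 2.63 (limma adjusted p = 0.0718) from Day 1 to Day 2 and 2.34 (adjusted p = 0.163) from Day 2 to Day 3. With the replicate number as a block the Day 2 step had an adjusted p of 0.0204.

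The 3 receptors that rose did not keep the same pace. By Day 2, the mean FPKM of *Lpar1* was 73.6% of its Day 3 mean, that of *Gpr37* 37.2% and that of *S1pr5* 21.8%. *Lpar1* had reached 46.5% of its Day 3 level by Day 2 in replicate 1 and 98.0% in replicate 2, *Gpr37* 41.7% and 34.8%, and *S1pr5* 10.1% and 26.8%. The order *Lpar1*, *Gpr37*, *S1pr5* thus held in each replicate, with no test of the order itself.

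**Figure D2:**
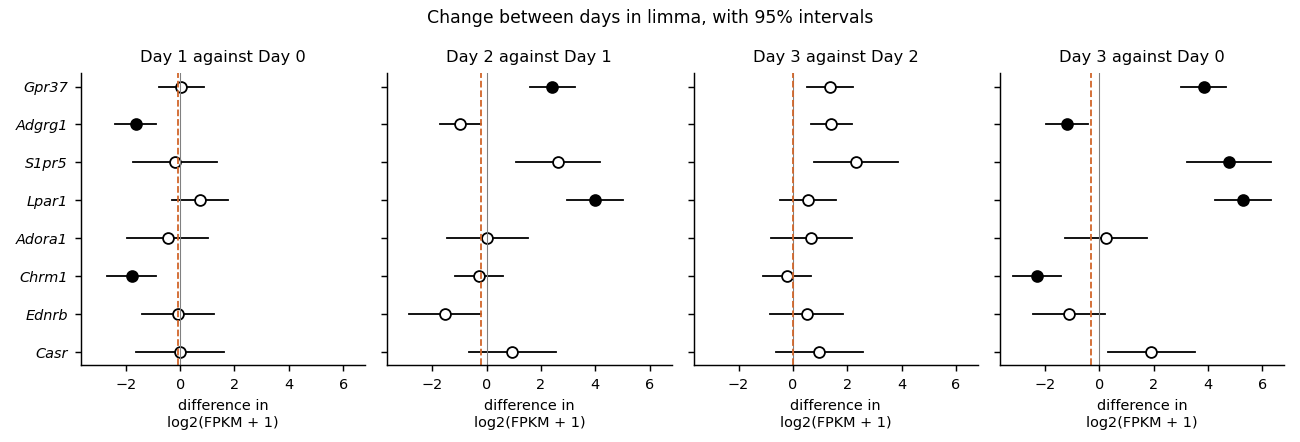
Points give the limma difference in log2(FPKM + 1) (x axis) for the 8 tested receptors (y axis) in 4 comparisons of days, bars their 95% intervals, and the dashed line the median of all tested genes. Filled points passed an adjusted p of 0.05: *Adgrg1* and *Chrm1* in the first step, *Gpr37* and *Lpar1* in the second, none in the third and 5 receptors over the whole course.

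*Adgrg1*, an adhesion receptor that is known to keep OPCs dividing, was the second most abundant of the 10 in the progenitors. The gene runs from 94974751 to 95014217 on the plus strand of chromosome 8. *Adgrg1* had 75.4 and 81.6 FPKM (Day 0), 36.2 and 16.5 (Day 1), 14.5 and 9.93 (Day 2), then 31.5 and 36.4 (Day 3). All later libraries were under both Day 0 libraries, Day 2 was the lowest of the 4 days, and both Day 3 libraries were above both Day 2 libraries.

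*Adgrg1* fell over the first day, with -1.64 (SE 0.33, limma adjusted p = 0.0147) from Day 0 to Day 1. That call was lost without either Day 0 library, at adjusted p of 0.0783 and 0.0972. Day 2 against Day 1 gave -0.97 (adjusted p = 0.138), and 0.0372 without the second replicate of Day 1. The higher level of *Adgrg1* on Day 3 than on Day 2 was 1.42 on the log2 scale (SE 0.33) and was seen in both replicates, but its limma adjusted p was 0.109, and 0.0496 without the second replicate of Day 1. From 110 fragments on Day 2 and 246 on Day 3, the ratio at equal depth was 2.78 (exact 95% interval 2.21 to 3.52, counting error only).

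Over the whole course *Adgrg1* fell by 1.19 on the log2 scale (SE 0.33, limma adjusted p = 0.0224), which was 0.88 below the median of all genes. The call did not survive median ratio scaling (adjusted p = 0.0654) or the loss of any library of Day 0 or Day 3 (0.0581 to 0.101).

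*Chrm1*, the muscarinic acetylcholine receptor M1, was present in progenitors and nearly absent afterwards. The gene lies on the plus strand of chromosome 19 from 8663789 to 8683587, and 329 exon bases are shared with *Gm22820* on the other strand. *Chrm1* was at 4.87 and 3.68 FPKM (Day 0), 1.05 and 0.126 (Day 1), 0.265 and 0.243 (Day 2), then 0.148 and 0 (Day 3). Both Day 0 libraries were above all 6 others.

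The difference of *Chrm1* from Day 0 to Day 3 was -2.29 (SE 0.39, limma adjusted p = 0.00251), and that of its first step -1.79 (SE 0.39, limma adjusted p = 0.0203). The first step lost its call with a pseudocount of 0.1 (0.108), without either Day 0 library (0.104 and 0.159) and without the second replicate of Day 1 (0.122). With the lowest value taken as 1 fragment, 74 fragments were counted on Day 0, 9 on Day 1 and 1 on Day 3. The Day 0 level was 7.46 times that of Day 1 at equal depth (exact 95% interval 3.73 to 17.0, counting error only), and 54.9 times that of Day 3 (9.56 to 2198).

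In the first step, *Adgrg1* and *Chrm1* were the 2 of 8 tested receptors called lower, against 7.56% of all genes, and 0 were called higher, against 5.04%. In the second, *Gpr37* and *Lpar1* were called higher, against 2.16% of all genes, and 0 were called lower, against 1.73%. Blocking on the replicate number raised the second count to 3 by adding *S1pr5*. From Day 2 to Day 3, limma called 0 of the 8 receptors, where 0.246% of all genes were called higher and 0.0491% lower. At an unadjusted p under 0.05 that last step held 3 receptors, *Gpr37*, *Adgrg1* and *S1pr5*, each with the higher level on Day 3, against 14.5% of all genes at that p in either direction.

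*Ednrb*, the endothelin receptor B, was the most abundant of the 10 receptors in every library of Day 0 and Day 1. Its gene lies on the minus strand of chromosome 14 from 103814625 to 103844402. *Ednrb* stood at 171 and 144 FPKM (Day 0), 307 and 71.0 (Day 1), 70.8 and 36.5 (Day 2), then 70.4 and 74.6 (Day 3). Both Day 0 libraries were above all 4 libraries of Day 2 and Day 3, but the Day 1 replicates lay on either side of Day 0 and were 2.10 apart on the log2 scale.

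The tests of *Ednrb* turned on its Day 1 libraries. From Day 0 to Day 3 its difference was -1.10 (SE 0.58, limma adjusted p = 0.167), and with the same difference the adjusted p was 0.00270 in a fit of Day 0 and Day 3 alone and 0.0192 or 0.0188 without the first or the second library of Day 1. Day 2 against Day 1 gave -1.52 (adjusted p = 0.177), and -2.57 (adjusted p = 0.0233) without the second replicate of Day 1. Over all days the limma adjusted p of *Ednrb* was 0.122, and 0.0352 with a replicate block, which made the count of receptors called 6.

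*Casr*, the calcium-sensing receptor, was above 0 only on the last 2 days. The gene runs from 36493696 to 36562141 on the minus strand of chromosome 16. *Casr* was at 0 in all 4 libraries of Day 0 and Day 1, at 0.181 and 2.15 FPKM on Day 2, and at 0.809 and 6.91 on Day 3. These rest on 1 and 13 fragments (Day 2) and 4 and 30 fragments (Day 3), and replicate 2 was the higher on both days.

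A count of 0 allows up to 3 fragments, which for *Casr* is 0.431 to 0.540 FPKM in the libraries of Day 0 and Day 1. The mean of Day 3 was 7.95 times the mean floor of Day 0. That ratio rests on the second replicate of Day 3, at 14.2 times the floor, while the first was at 1.67 times. These ratios leave out the counting error of Day 3, where the first replicate held only 4 fragments. Without the second replicate *Casr* fell below the filter and was not tested. Over all libraries the limma adjusted p from Day 0 to Day 3 was 0.0615, and it was 0.0245 with the replicate block, which raised the receptors called to 6, 0.0366 with a pseudocount of 0.1 and 0.00944 without the first replicate of Day 3. Between Day 2 and Day 3 the adjusted p was 0.586.

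*Adora1*, the adenosine receptor A1, showed no change that passed the test. The gene lies on the minus strand of chromosome 1 from 134199223 to 134235431 and shares 1162 exon bases with *Mybph* on the other strand, which is listed at 0 in all 8 libraries. *Adora1* was at 3.28 and 4.92 FPKM (Day 0), 1.80 and 3.78 (Day 1), 1.32 and 4.99 (Day 2), then 2.21 and 10.1 (Day 3). The replicates split rather than the days, with replicate 2 higher on 4 of 4 days. Day 3 against Day 0 gave 0.25 (limma adjusted p = 0.788), with a 95% interval of -1.25 to 1.74 that holds changes of either sign.

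*Oprk1*, the kappa opioid receptor, lies on the plus strand of chromosome 1 from 5588466 to 5606131 and was listed at 0 in all 8 libraries. For its longest annotated transcript of 4675 bases, 3 fragments correspond to 0.419 to 0.668 FPKM, the level below which it could not be seen. *Chrm3*, the muscarinic receptor M3, lies on the minus strand of chromosome 13 from 9875486 to 10360847. *Chrm3* held 1 fragment in each Day 0 library and in the first Day 2 library (0.206, 0.257 and 0.259 FPKM) and 0 in the other 5, so no change could be read.

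Taking the 10 together, the mix of receptor transcripts turned over while their sum did not move in a single direction. Summed FPKM was 261 and 240 (Day 0), 354 and 97.7 (Day 1), 143 and 173 (Day 2), then 249 and 358 (Day 3). *Ednrb* and *Adgrg1* made up 65.5% and 28.9% of the sum in the first Day 0 library and 60.0% and 34.0% in the second. On Day 3 *Ednrb* held 28.3% and 20.9%, *Gpr37* 23.7% and 30.3%, *Lpar1* 24.9% and 19.1%, *S1pr5* 9.16% and 14.7%, and *Adgrg1* 12.7% and 10.2%.

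**Figure D3:**
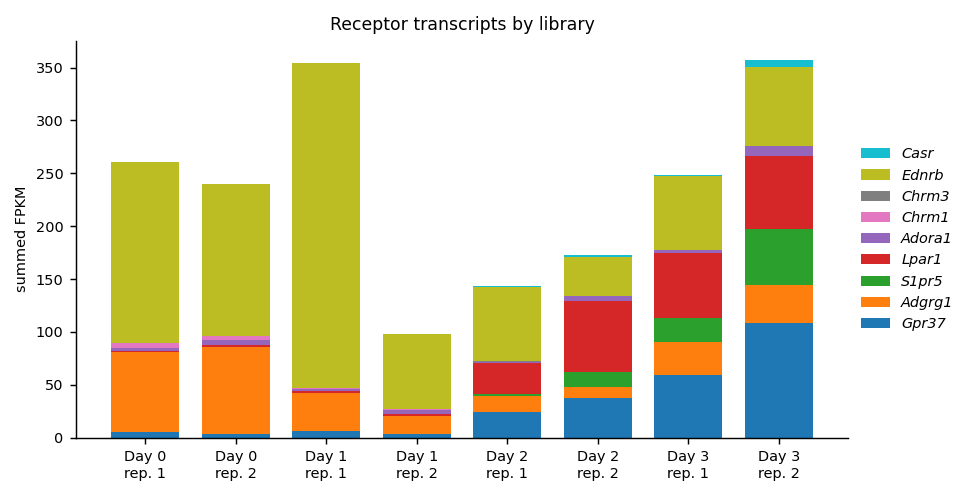
Stacked bars give the FPKM of each receptor in each library (y axis, linear, from 0), ordered by day and replicate on the x axis. *Ednrb* and *Adgrg1* fill most of the bars of Day 0 and Day 1, with 89.6% to 97.0%, and *Gpr37*, *Lpar1* and *S1pr5* hold 57.7% and 64.2% of the bars of Day 3.

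The order of the levels changed with it. On Day 0 *Ednrb* was above *Adgrg1* and *Adgrg1* above all others in both replicates, while *Gpr37*, *Chrm1* and *Adora1* overlapped. On Day 2 the order by mean was *Ednrb*, *Lpar1* and *Gpr37*, with neighbours overlapping, and *Gpr37* lay above *Adgrg1* in both replicates. On Day 3 *Gpr37* and *Ednrb* overlapped, *Ednrb* lay above *Lpar1*, *Lpar1* above *S1pr5*, and *S1pr5* overlapped *Adgrg1*.

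The replicates themselves were compared with the day held in the model. limma called 0 of the 8 receptors different between replicates, where 0.680% of all genes were called higher and 0.369% lower in replicate 2. At an unadjusted p under 0.05 there were 4 of the 8 receptors, against 11.9% of all genes. *Adora1* (1.10, SE 0.26, limma adjusted p = 0.137) and *Lpar1* (0.70, limma adjusted p = 0.213) were higher in replicate 2 on all 4 days. *S1pr5* (0.96, limma adjusted p = 0.315) was higher there on Day 2 and Day 3. Its earlier libraries held at most 1 fragment each and give no direction. *Ednrb* (-0.80, limma adjusted p = 0.345) was lower in replicate 2 on 3 of 4 days. The astrocyte marker *Gfap* was 14.7 to 45.5 FPKM in replicate 1 and 154 to 603 in replicate 2, and *Aqp4* 0.802 to 3.97 and 22.9 to 84.8. Whether astrocyte RNA has a part in the levels of *Adora1*, *S1pr5*, *Lpar1* or *Casr* in replicate 2 was not tested. The 6 microglial markers summed to between 0 and 2.51 FPKM, with 4 of them (*Aif1*, *Cx3cr1*, *Csf1r* and *Tmem119*) at 0 in every library. The 5 endothelial markers summed to between 0 and 0.428 FPKM, with 3 of them (*Cldn5*, *Tek* and *Cdh5*) at 0 in every library.

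**Figure D4:**
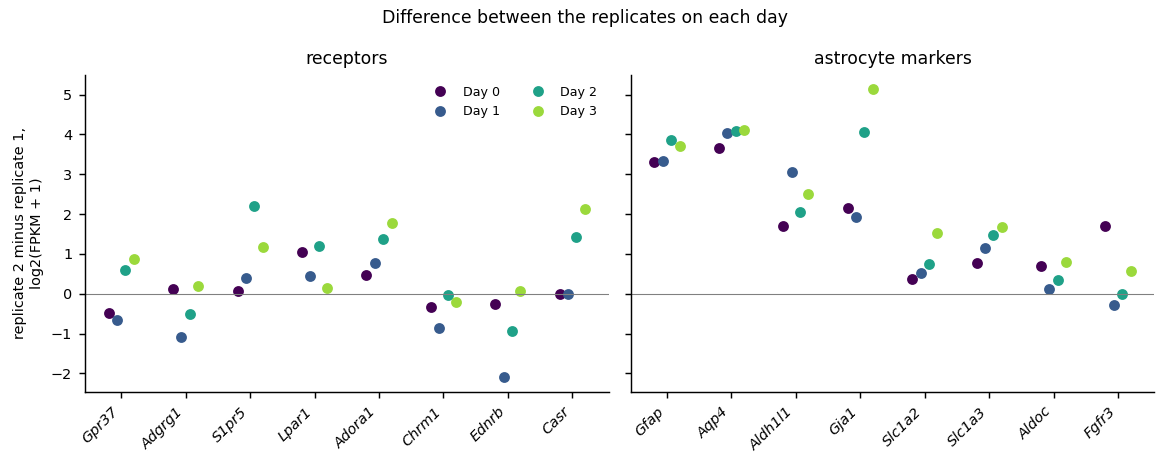
Points give replicate 2 minus replicate 1 in log2(FPKM + 1) (y axis) on each day for the 8 tested receptors (left) and 8 astrocyte markers (right), coloured by day. *Adora1*, *S1pr5* and *Lpar1* sit above 0 on all 4 days, *Ednrb* reaches -2.10 on Day 1, and 7 of the 8 astrocyte markers sit above 0 on all 4 days. The *S1pr5* points of Day 0 and Day 1 rest on at most 1 fragment per library.

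Of 27 related receptors listed with them, 24 were found by symbol and 11 could be tested. From Day 0 to Day 3, 0 rose and 4 fell (*S1pr2*, *Lpar6*, *Lpar2* and *Gpr17*), against 12% and 26.3% of all tested genes. The median of the 11 was -0.35 against -0.31 over all genes. With the replicate block 1 was called higher (*S1pr3*, 1.14, limma adjusted p = 0.0235) and 4 lower. With median ratio scaling 2 were called lower, and *Lpar6* (limma adjusted p = 0.0812) and *Gpr17* (0.0985) were not.

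The S1P and LPA receptors changed members. *S1pr2* was at 10.4 and 10.4 FPKM on Day 0 and at 1.63 and 0.371 on Day 3, a fall by 2.59 on the log2 scale (SE 0.44, limma adjusted p = 0.00252), where *S1pr5* rose. *S1pr1* went from 5.60 and 7.53 to 5.15 and 13.1 (0.31, adjusted p = 0.558). *S1pr3* followed the replicates, with 0.549 to 2.25 FPKM in replicate 1 and 5.06 to 14.2 in replicate 2 (2.14 on the log2 scale, limma adjusted p = 0.00564). *S1pr4* was above 0 in 1 library only, at 0.341 FPKM.

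Among LPA receptors, *Lpar6* went from 7.66 and 3.96 FPKM on Day 0 to 0.743 and 2.54 on Day 3, and *Lpar2* from 1.72 and 1.86 to 0.161 and 0.183. Their differences were -1.40 (limma adjusted p = 0.0376) and -1.25 (limma adjusted p = 0.0185). *Lpar4* was at 0 to 0.308 FPKM in replicate 1 and 0.739 to 5.77 in replicate 2, and *Lpar5* was listed at 0 throughout. On Day 3 *Lpar1* was thus the LPA receptor with the highest FPKM in both replicates, as *S1pr5* was among the S1P receptors.

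*Gpr37l1*, the paralog of *Gpr37*, was at 199 and 119 FPKM on Day 0 and at 172 and 84.8 on Day 3 (-0.35, limma adjusted p = 0.529). It was above *Gpr37* in every library but the second of Day 3. *Gpr37l1* was lower in replicate 2 on every day, and that difference was called (-0.77, limma adjusted p = 0.0134). *Gpr17*, a receptor of the cells between OPCs and OLs, peaked on Day 1 at 454 and 449 FPKM and ended at 185 and 116 (Day 3 against Day 0 -0.79, limma adjusted p = 0.0200). The relatives of the muscarinic, opioid, adenosine and endothelin receptors were near or at 0: *Chrm5* and *Oprm1* were listed at 0 in every library, *Chrm2*, *Chrm4*, *Oprd1*, *Adora2a* and *Adora3* stayed under 1 FPKM, *Oprl1* and *Adora2b* reached at most 1.39 and 1.27 FPKM, and *Ednra* was at 0.224 to 1.29 FPKM. Of the class C receptors listed beside *Casr*, *Gprc6a* was listed at 0 in every library, while *Gprc5b* was at 25.6 and 15.3 FPKM (Day 0) and at 13.8 and 19.5 (Day 3), a difference of -0.26 (limma adjusted p = 0.679). Over all days *Gprc5b* was called (limma adjusted p = 0.0370), with 4.17 and 5.45 FPKM on Day 2.

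**Figure D5:**
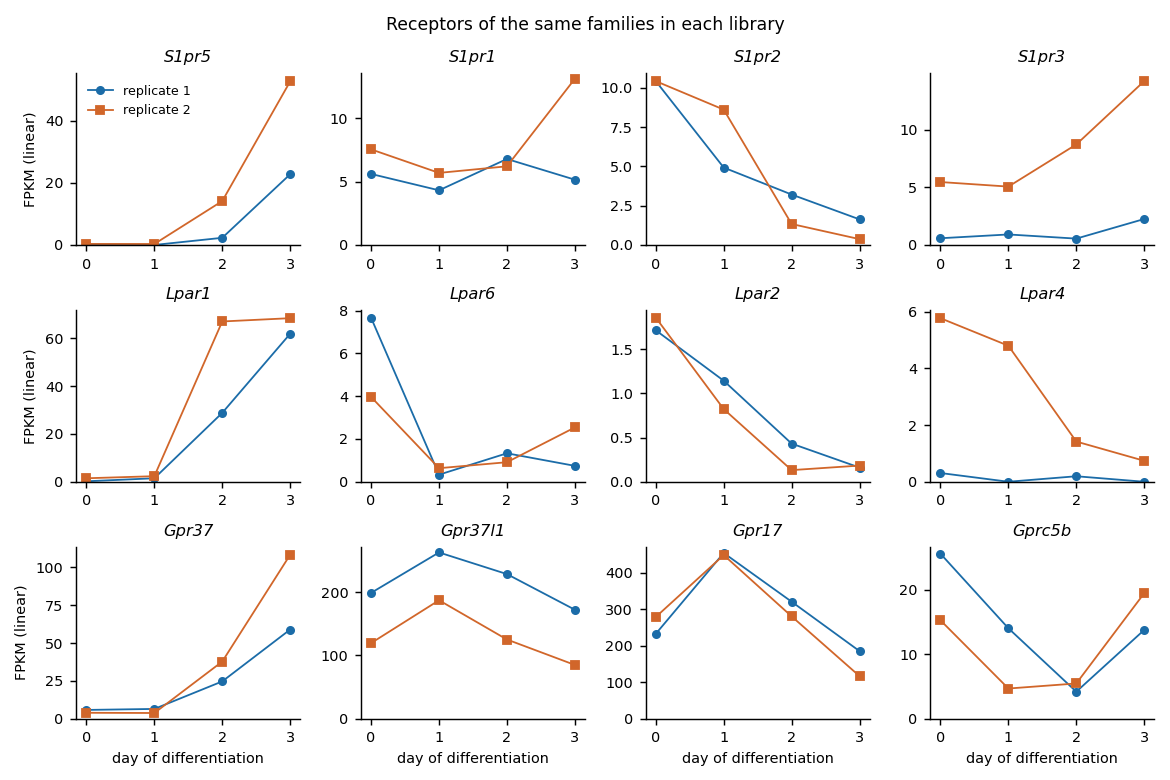
FPKM (y axis, linear, own scale per panel) by day (x axis) for receptors of the same families, with a line for each replicate. *S1pr5* ends at 22.8 and 52.7 FPKM where *S1pr2* ends at 1.63 and 0.371, and *S1pr3* and *Lpar4* separate the replicates.

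Of 28 genes for ligands and the enzymes that make or remove them, 25 were found and 17 tested, and 3 rose and 3 fell from Day 0 to Day 3. Over all tested genes 12% were called higher and 26.3% lower. The median of the list was -0.38 against -0.31 over all genes. *Spns2*, which exports S1P, rose from 5.63 and 6.03 FPKM to 21.2 and 23.8 (1.78, limma adjusted p = 3.43e-04). *Enpp2*, which makes LPA, rose from 186 and 177 to 441 and 589 (1.49, limma adjusted p = 4.60e-04). *Psap*, whose product prosaposin is a proposed ligand of Gpr37, rose from 218 and 198 to 484 and 479 (1.21, limma adjusted p = 5.52e-04).

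The adenosine transporter *Slc29a1* fell from 18.8 and 16.6 FPKM to 2.70 and 1.62 (-2.58, limma adjusted p = 5.03e-04). The ectonucleotidase *Entpd1* fell by 1.60 (limma adjusted p = 0.0259) and the adenosine kinase *Adk* by 1.48 (limma adjusted p = 0.00486). With median ratio scaling the counts were again 3 and 3, against 2137 and 2045 over all genes. *Edn1*, *Edn2* and *Edn3*, which encode the endothelins, and *Pdyn*, which encodes the dynorphins that act on Oprk1, were listed at 0 in every library.

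Of 26 G protein subunits, 23 were tested, and 8 were called higher and 7 lower on Day 3 than on Day 0. The shares over all tested genes were 12% and 26.3%, and the median was 0.14 against -0.31. With median ratio scaling the counts became 11 and 2, against 2137 and 2045 over all genes. *Gnao1*, the alpha subunit of Go, rose from 21.1 and 27.4 FPKM to 173 and 210 (2.93, limma adjusted p = 1.84e-04). The gamma subunit *Gng4* was at 0.220 and 0 FPKM (Day 0), 24.1 and 28.8 (Day 2), then 15.4 and 7.74 (Day 3), and *Gng11* was at 0 until Day 2 and at 1.10 and 3.74 on Day 3. *Gng2* (-1.47, limma adjusted p = 0.0426), *Gnaz* (-1.29, adjusted p = 0.00880) and *Gng3* (-0.95, adjusted p = 0.00634) fell, *Gng2* without its call after median ratio scaling (0.0867).

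Downstream, 3 of 23 tested effectors rose and 9 fell, against 12% and 26.3% of all tested genes. Their median was -0.46 against -0.31 over all genes. After median ratio scaling 5 rose and 5 fell, against 2137 and 2045 over all genes. The inositol trisphosphate receptor *Itpr2* rose by 2.00 (limma adjusted p = 7.38e-04) and the cAMP phosphodiesterase *Pde4b* by 1.08 (limma adjusted p = 0.00129). The adenylyl cyclase *Adcy3* (-2.19, limma adjusted p = 0.00323), the protein kinase A subunit *Prkar2b* (-1.81, adjusted p = 0.00914) and the phospholipase *Plcb3* (-1.52, adjusted p = 0.00140) fell.

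Genes that shut receptor signals off were the list with the lowest median, at -0.88 over 18 tested genes, of which 2 rose and 9 fell. All tested genes had a median of -0.31, with 12% called higher and 26.3% lower. With median ratio scaling 2 rose and 7 fell, against 2137 and 2045 over all genes. The 2 that rose were *Rgs3* (3.01, limma adjusted p = 2.05e-04) and *Rgs16* (limma adjusted p = 0.00174), which speed the turning off of G proteins. *Rgs3* went from 6.21 and 4.09 FPKM to 44.9 and 50.6, and *Rgs16* from 0.838 and 0.349 to 14.9 and 8.94. *Rgs19* (-2.53, limma adjusted p = 3.69e-04) and *Rgs10* (-2.41, limma adjusted p = 0.00907) of the same family had the lowest differences, followed by *Rgs20* (-1.56, limma adjusted p = 0.00126).

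The genes most like each called receptor over the 8 libraries were found by the root mean square difference of log2(FPKM + 1) after centring each gene, among 8654 to 8655 genes with a mean FPKM of at least 5. This is a description, since all libraries and both replicates are shared. *Gpr37* was nearest to *Hcn2* (0.28), *Zfp536* (0.33) and *Plk3* (0.36), and *S1pr5* to *Unc5b* (0.34), *Myo1d* (0.37) and *Tmem125* (0.48). *Lpar1* was nearest to *Kndc1* (0.47), *Plekhg1* (0.49) and *Man1a* (0.53). *Adgrg1*, with its dip on Day 2, was nearest to *Hunk* (0.34), *Hprt* (0.35) and *Vim* (0.36), and *Chrm1* to *Larp7* (0.15), *Phgdh* (0.16) and *Hip1* (0.20). *Chrm1* never exceeded 4.87 FPKM, and this scale understates change near 0, so its small distances do not mean equal fold changes.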

How the data were processed

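The authors sequenced stranded, poly(A)-selected libraries and processed the reads with OmicSoft ArrayStudio. They deposited FPKM per gene, with no pooling of replicates. The build is mm10 in the submitters' processing notes. The aligner, gene model and strand setting of the counting are not given in the sources used here, so genes that overlap on opposite strands may share reads.

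The receptors and gene lists were chosen with earlier results of these data known. The 12208 genes that reached an FPKM of 1 in 2 or more of the 8 libraries were tested on log2(FPKM + 1) with limma 3.58.1 in R 4.3.3 (eBayes with a trend, the day as a factor, adjustment over all genes). The model was tested on simulated data. Each day has 2 libraries, so p-values rest on the spread between replicates, pooled over the 4 days and moderated across genes. Python 3.11.15, numpy 2.4.6, pandas 2.3.3 and matplotlib 3.10.9 were also used.

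Named genes are the 10 receptors, their family relatives, up to 3 called genes each way with the largest change per list, and the 3 nearest genes to each receptor called over all days. *Gpr17* was added after its values were seen. Coordinates come from GENCODE M21 (GRCm38). Depth and fragments were read back from the steps between low FPKM values, and came out whole within 0.06 in every library for 6 of the 10 receptors. Intervals of fragment ratios cover counting error only, while limma's intervals come from the spread between libraries.

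The labels number the replicates 1 and 2 on every day. Differences between the replicates correlated across the 12208 genes with r from 0.164 to 0.285 in the 6 pairs of days, all over 0.1. The replicate number may therefore pair the libraries, which the labels do not state. The main tests leave it out, and the block on it was an alternative. The others were a pseudocount of 0.1, no filter, FPKM of at least 10 in 1 library, 3 scalings (same sum, median ratio, quantile), the compared days alone, no trend, and each library left out. The direction in replicate 1 alone was added after seeing the data.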

Additional observations from a re-analysis of the deposited data

How the results depend on the processing

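Of the receptors' differences, *Lpar1*, *Gpr37*, *S1pr5* and *Chrm1* from Day 0 to Day 3 kept their direction and call under every alternative in which they were tested, and *Chrm1* was not tested under the filter of FPKM 10. The 5 calls of that comparison became 4 under median ratio scaling or the filter of FPKM 10, 6 with the replicate block, a pseudocount of 0.1 or the compared days alone, and 4 to 6 when a library was left out. Over all days, the 5 calls became 4 with the filter of FPKM 10, 6 with the block and 4 to 6 when a library was left out. For Day 1 against Day 0, the 2 calls became 1 with a pseudocount of 0.1 and 1 with the filter of FPKM 10, and 0 to 2 when a library was left out: 0 without either Day 0 library and 1 without the second replicate of Day 1. For Day 2 against Day 1, the 2 calls became 1 without a trend, 3 with the replicate block or a pseudocount of 0.1, and 0 to 3 when a library was left out, with 0 without the second replicate of Day 2. For Day 3 against Day 2, the 0 calls became 0 to 1, with *Adgrg1* called without the second replicate of Day 1. The replicate block added *Casr*, *S1pr5* and *Ednrb* as given above and changed no other call of the 10 receptors. Among the listed genes from Day 0 to Day 3, the block added *S1pr3* (limma adjusted p = 0.0235), *Ada* (0.0481), *Gng7* (0.0308), *Gnb2* (0.0441), *Gnb5* (0.0291) and *Pde4d* (0.0143), and *Gng10* was no longer called (0.0506). The cause of these shifts was not tested. No called difference of a receptor changed sign, but some uncalled ones did: over the alternatives, *Adora1* from Day 0 to Day 3 ranged from -0.65 to 1.14, *Ednrb* from Day 0 to Day 1 from -1.13 to 0.97 and *Gpr37* from Day 0 to Day 1 from -0.29 to 0.37, and smaller steps of *Adora1*, *Chrm1*, *Lpar1* and *S1pr5* also changed sign. At 960000 to 1530000 fragments a receptor under about 0.5 FPKM rests on 3 fragments or fewer. That limits *Oprk1*, *Chrm3*, the early levels of *Casr* and *S1pr5*, and *Lpar1* in the first Day 0 library. It also limits *Chrm1* on Day 2, on Day 3 and in the second Day 1 library.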
